A study of Mus musculus with 6 samples.

Results

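The cytosolic and mitochondrial heat shock chaperones were examined in mouse leukemia cells labelled as Zfx null or Zfx flox. The members were chosen by gene symbol, as a list of 43 genes covering Hsp70, Hsp90, Hsp60, the small heat shock proteins, J proteins, Bag proteins, their cochaperones and the heat shock factors. Of the 43 genes, 40 had a probe set annotated to that gene alone, among 19938 such genes on the array, and 39 were bright enough to be tested, among 13956 genes tested in all. Hspa1l lay below the filter on dim genes, Hspa1b shared its probe set with Hspa1a, and Hsp90ab1 and Hsf1 were not analysed here.

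The cells were T cell acute lymphoblastic leukemias (T-ALL) of 3 independent lines, 14843, 14844 and 14846. Every line had been made by retroviral transfer of the active intracellular part of Notch (Notch-IC) into blood progenitors with a tamoxifen-activated Cre (Cre-ER) and the conditional allele Zfx fl/y, and was grown in sublethally irradiated secondary recipients. In the Tamoxifen group, recipients were gavaged with 5 mg of the drug per day for 3 days, starting 10 days after transplant. The Vehicle group received vehicle alone, and GFP-positive cells of both groups were sorted 48 h after the last dose. The genotype label was ZFX null for Tamoxifen arrays and ZFX flox for Vehicle arrays. Each line gave 1 array per group, so each group held 3 arrays. Each line stems from 1 leukemia. No group received Tamoxifen without Cre-ER or without the conditional allele, and what the drug, active Cre or the loss of Zfx each contributed cannot be told apart.

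Heat shock chaperones bind unfolded proteins and help them reach or regain their shape. Hsp70 proteins hold and release client proteins under the control of J proteins, which drive ATP hydrolysis, and of nucleotide exchange factors such as the Bag and Hsp110 proteins. Hsp90 finishes the folding of many kinases and receptors with cochaperones such as Stip1, Ahsa1 and Fkbp4, while Hsp60 and Hsp10 fold proteins inside mitochondria. Heat shock factors, chiefly Hsf1, raise many of these genes together through heat shock elements, which are alternating copies of GAA and TTC in the promoter. In T-ALL, NOTCH1 and other oncoproteins are known clients of this machinery.

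The heat shock element is shown first because the genes described below differ in whether their promoter windows hold a pair of its units. Every stretch printed holds such a pair, so the stretches do not show this difference. Sequences are RefSeq promoter windows of build GRCm38.p6, from 250 bases before the annotated start to 50 after it, and each stretch is given 5′ to 3′ on the gene's own strand. Capitals mark matches to GAANNTTC or TTCNNGAA, each of which is its own reverse complement, so that one search covers both strands. Neighbouring matches can overlap and share a GAA or TTC.
Bag3, chr7:128523603-128523632, + strand: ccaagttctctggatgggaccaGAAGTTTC
Hsph1, chr5:149636287-149636316, - strand: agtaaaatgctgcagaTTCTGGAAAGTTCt
Chordc1, chr9:18292242-18292291, + strand: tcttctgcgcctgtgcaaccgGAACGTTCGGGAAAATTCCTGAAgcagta
Fkbp4, chr6:128438757-128438836, - strand: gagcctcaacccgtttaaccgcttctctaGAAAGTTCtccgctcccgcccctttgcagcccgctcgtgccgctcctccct
Hspe1, chr1:55088028-55088097, + strand: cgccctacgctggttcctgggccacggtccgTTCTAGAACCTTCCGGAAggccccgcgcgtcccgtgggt

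The stretch of Chordc1 held 4 overlapping matches, that of Hspe1 held 3 and that of Hsph1 held 2, whereas the stretches of Bag3 and Fkbp4 held 1 each. Counted from the annotated start, those of Bag3 and Hsph1 lay after it, at bases 42 to 49 and 36 to 48. Those of Chordc1 spanned the start, from -4 to 18. Those of Fkbp4 and Hspe1 lay before it, at -151 to -144 and -89 to -72. Promoter windows were found for 35 of the 43 genes. At least 1 window held a match in 16 of these 35 genes, or 45.7%, against 17.0% of the 27025 genes with a window. At least 3 alternating units stood in 5 of them, namely Chordc1, Dnajb6, Hspd1, Hspe1 and Hsph1, or 14.3% against 0.662% of all genes with a window. Bag3 and Fkbp4 were not among these 5. Dnajb1, Hspa4l, Hsf2 and Ahsa1 had a window without any match to a pair. The sequence AGGCCT, reported as the core of the Zfx motif and also its own reverse complement, was present for 6 of the 35 genes, or 17.1%, against 11.6% of all genes. Those 6 were Cdc37, Dnaja2, Dnajb1, Hspa1a, Hspa1b and Hspd1, and the window of Bag3 did not contain it. These matches describe letters in a window and were not tested as binding sites.

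Zfx itself was at 10.94 ± 0.06 log2 intensity in Tamoxifen arrays and 10.87 ± 0.14 in Vehicle arrays (SD, n = 3 each), a difference of 0.07 ± 0.06 (SE) with a limma adjusted p of 0.48. The deleted part of the gene relative to its probes is not given in the sources used here, and the value is therefore no check on the genotype labels. The reported Zfx targets Ptpmt1 and Idh2 were lower in the Tamoxifen array of every line, and by most in line 14846, at within-line log2 differences of -2.61 and -1.70. Arrays correlated at 0.9905 to 0.9955 over all probe sets. Of 16 T cell markers, 13 were measured and all 13 passed the filter, with a summed intensity of 71237 to 77713 in Tamoxifen arrays and 73799 to 85488 in Vehicle arrays. For this and every list below, the sum covers all measured genes, also those below the filter, and so holds background signal. Monocyte and macrophage markers passed in 5 of 11 measured genes, at sums of 2076 to 2333 in Tamoxifen arrays and 1919 to 2127 in Vehicle arrays, and Csf1r, Adgre1 and Cd14 were below the filter. None of the 5 was called, but 3 were higher in Tamoxifen arrays at an unadjusted p of 0.05, and the part of these cells in the chaperone values was not tested. Neutrophil markers passed in 7 of 10 measured genes, without Ly6g, at sums of 1533 to 3315 in Tamoxifen arrays and 1486 to 2478 in Vehicle arrays. NK cell markers passed in 4 of 8, without Ncr1 and Eomes, at 7610 to 8986 in Tamoxifen arrays and 5161 to 9418 in Vehicle arrays. B cell markers passed in 3 of 7, without Cd79a and Ms4a1. Their sums were 840 to 908 in Tamoxifen arrays and 768 to 1241 in Vehicle arrays. Erythroid markers passed in 3 of 4, without Klf1, at 500 to 529 and 479 to 535. Stroma and endothelium markers passed in 6 of 10, without Cxcl12 and Dcn. Their sums did not overlap, at 3844 to 3991 in Tamoxifen arrays and 3593 to 3821 in Vehicle arrays. None of the 6 was called, and their part in the chaperone values was not tested. Arrays of bulk cells cannot tell fewer cells of a type from less RNA per cell.

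The comparison of Tamoxifen with Vehicle arrays asked how chaperone expression differed after induced deletion of Zfx. One chaperone gene, Bag3, was called lower and none was called higher. Bag3 was lower in Tamoxifen cells of each of the 3 lines, by 1.99-fold in the fit over them. Hsph1, Hspa4l, Dnajb1, Fkbp4 and Hsf2, none of them called, had differences of -0.46 or less in lines 14843 and 14844 and of -0.10 to -0.02 in line 14846. The calls amounted to 1 lower among 39 tested genes, or 2.56%, against 4.93% of all tested genes, and to 0 higher, against 1.30% of all tested genes. Calls were made at a Benjamini-Hochberg adjusted p of 0.05 in limma with line as a block. At an unadjusted p of 0.05, 8 chaperone genes were lower and 1 was higher, where the shares over all genes were 13.3% lower and 10.5% higher. The median log2 difference over the 39 genes was -0.10, against 0.03 over all genes, and 29 of the 39 lay below 0, or 74.4%, against 41.4% of all genes. Groups did not overlap for 11 of the 39 genes, of which 8 were lower and 3 higher in Tamoxifen arrays. That is 28.2%, near the 23.7% of all tested genes, of which 1599 were lower and 1707 higher in Tamoxifen arrays.

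Bag3 joins Hsp70 to small heat shock proteins, promotes exchange of nucleotide on Hsp70 and steers clients to autophagy. Its log2 intensity was 8.57, 8.68 and 8.05 in the Tamoxifen arrays of lines 14843, 14844 and 14846, against 9.65, 9.52 and 9.12 in the Vehicle arrays of the same lines. Every Tamoxifen array was below every Vehicle array, and line 14846 was the lowest in both groups. The fitted difference was -0.996 ± 0.07 (SE), with a 95% interval of -1.17 to -0.83 and an adjusted p of 0.00401 in limma. Without line as a block the same difference had an adjusted p of 0.0726, which ends the call. Within lines 14843, 14844 and 14846 the differences were -1.08, -0.84 and -1.06, and the means of the lines themselves lay up to 0.52 apart.

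**Figure D1:**
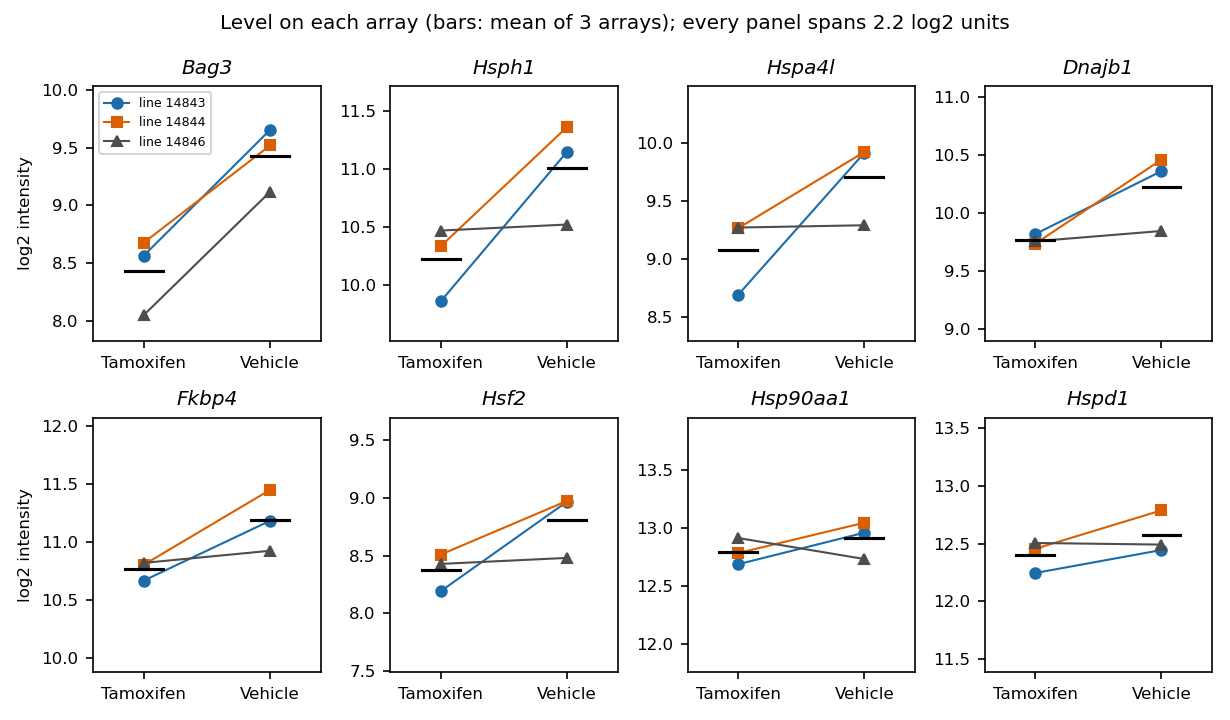
Log2 intensity (vertical axis) of 8 chaperone genes in Tamoxifen and Vehicle arrays, with 1 symbol per array, a thin line joining the arrays of a leukemia line, and a bar at each mean of 3 arrays. Bag3 slopes alike in every line, with Tamoxifen arrays at 8.05 to 8.68 and Vehicle arrays at 9.12 to 9.65, whereas Hsph1, Hspa4l, Dnajb1, Fkbp4 and Hsf2 slope in lines 14843 and 14844 and are nearly flat in line 14846.

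The other genes of the Bag family and Hspbp1, a further nucleotide exchange factor, gave no call. Bag2, an inhibitor of the ubiquitin ligase Stub1, was at 8.18, 8.50 and 8.56 in the Tamoxifen arrays of lines 14843, 14844 and 14846, against 8.40, 8.55 and 8.86 in their Vehicle arrays. It was lower in each line, but the groups overlapped, and the difference of -0.19 ± 0.06 (SE) had an adjusted p of 0.16. Bag1, Bag4, Bag5 and Hspbp1 lay between -0.09 and 0.01. Among the 6 genes of this set the decrease of Bag3 was thus the only one beyond 0.2 log2.

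Hsp110 genes showed the widest differences among the Hsp70 relatives. Hsph1, an Hsp110 protein that recharges Hsp70 and takes part in dissolving aggregates, was at 9.86, 10.33 and 10.47 log2 intensity in the Tamoxifen arrays of lines 14843, 14844 and 14846, against 11.15, 11.36 and 10.52 in their Vehicle arrays. The groups did not overlap, but the within-line difference was -0.05 in line 14846, against -1.29 and -1.03 in lines 14843 and 14844. The fitted difference of -0.79 ± 0.23 (SE) had an adjusted p of 0.12. Hspa4l, a related Hsp110 gene singled out after its values were seen, followed the same order, at 8.69, 9.26 and 9.27 in Tamoxifen arrays and 9.92, 9.92 and 9.29 in Vehicle arrays. Its difference was -0.64 ± 0.22, with an adjusted p of 0.16. The remaining Hsp110 gene, Hspa4, did not follow this order, with a difference of 0.06 ± 0.06 and within-line values from -0.03 to 0.12.

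Hsp70 genes differed less. Hspa1a, the heat-inducible Hsp70, was at 7.86, 8.001 and 8.12 in Tamoxifen arrays of lines 14843, 14844 and 14846, against 8.22, 8.33 and 7.93 in Vehicle arrays. It was lower with Tamoxifen in lines 14843 and 14844 and higher in line 14846, and its difference of -0.17 ± 0.12 (SE) had an adjusted p of 0.43. The probe set shared by Hspa1a and its near-identical copy Hspa1b gave -0.05 ± 0.07, so the copies cannot be told apart there. Hspa8, the constitutive Hsp70, gave -0.10 ± 0.07, and its 2 probe sets that also cover the intronic RNAs Snord14c and Snord14d held the same values and gave -0.31 ± 0.11. Hspa14, an Hsp70 linked to the ribosome, had the largest difference above 0 among the 39 genes, at 11.11, 11.15 and 11.27 in Tamoxifen arrays and 10.99, 11.07 and 10.95 in Vehicle arrays. The groups of Hspa14 did not overlap, and the difference of 0.18 ± 0.07 had an adjusted p of 0.19.

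J proteins select clients for Hsp70 and gave no call. Dnajb1, the stress-inducible partner of Hspa1a, was at 9.82, 9.73 and 9.75 in the Tamoxifen arrays of lines 14843, 14844 and 14846, against 10.36, 10.46 and 9.84 in Vehicle arrays. Its Tamoxifen arrays lay within 0.1 of each other, and the Vehicle array of line 14846 lay close to them. The difference of -0.45 ± 0.12 (SE) had an adjusted p of 0.10. Dnaja1, a farnesylated J protein of the cytosol, gave -0.20 ± 0.10 on the probe set used, -0.42 ± 0.14 on a second one, and 0.08 ± 0.04 on one shared with Mir207. Dnajb4 gave -0.30 ± 0.12, with -0.68 in line 14843 and -0.12 and -0.10 in lines 14844 and 14846, and Dnajb2 gave -0.18 ± 0.08, while Dnaja2, Dnaja4 and Dnajc7 lay between 0.01 and 0.09. In all, 0 of the 8 tested J protein genes passed.

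Hsp90 and its cochaperones gave no call. Hsp90aa1, the inducible cytosolic Hsp90, was at 12.69, 12.78 and 12.91 in Tamoxifen arrays of lines 14843, 14844 and 14846, against 12.96, 13.05 and 12.73 in Vehicle arrays. The direction thus differed between lines, at -0.12 ± 0.10 (SE) with an adjusted p of 0.52, and 2 other probe sets of the gene each gave -0.12. Fkbp4, the immunophilin that carries steroid receptors with Hsp90, was at 10.67, 10.80 and 10.82 in Tamoxifen arrays, against 11.18, 11.45 and 10.92 in Vehicle arrays. Its groups did not overlap, and the difference of -0.42 ± 0.11 had an adjusted p of 0.0933, the lowest of the genes not called. Ahsa1, an activator of the Hsp90 ATPase, was at 11.10, 11.20 and 11.30 in Tamoxifen arrays and 11.42, 11.55 and 11.38 in Vehicle arrays. Ahsa1 was lower in each line, at -0.25 ± 0.07 with an adjusted p of 0.11. All 8 tested cochaperone genes had a difference below 0, down to -0.01 for Ptges3, the p23 cochaperone, and 0 of the 8 passed.

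Mitochondrial chaperones gave no call either. Hspd1, the mitochondrial Hsp60, was at 12.25, 12.45 and 12.50 in Tamoxifen arrays of lines 14843, 14844 and 14846, against 12.44, 12.79 and 12.49 in Vehicle arrays. Hspe1, the Hsp10 that caps it and shares its promoter region, was at 12.33, 12.31 and 12.41 in Tamoxifen arrays, against 12.22, 12.61 and 12.26 in Vehicle arrays. The Vehicle array of line 14844 was the highest for both genes. Hspd1 gave -0.17 ± 0.08 (SE) and Hspe1 gave -0.02 ± 0.10, with adjusted p-values of 0.25 and 0.94. Hspa9, Trap1 and Dnaja3, the Hsp70, Hsp90 and J protein of mitochondria, lay between -0.04 and 0.11.

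Small heat shock proteins, which hold unfolded proteins without ATP, were dim. Hspb1 was at 7.02, 6.97 and 7.05 in Tamoxifen arrays of lines 14843, 14844 and 14846, against 7.01, 6.93 and 7.01 in Vehicle arrays, close to the filter at 6.70. Its difference was 0.03 ± 0.05 (SE), with an adjusted p of 0.75 and a 95% interval of -0.09 to 0.15. Cryab, singled out after its values were seen, was at 6.53 and 6.57 in the Tamoxifen arrays of lines 14843 and 14844, against 6.41 and 6.32 in their Vehicle arrays, all 4 below the value of the filter. In line 14846 it was at 7.29 in the Tamoxifen array and 8.52 in the Vehicle array. Its difference over the lines was -0.28 ± 0.29, with an adjusted p of 0.59.

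Hsf2, a heat shock factor active in development and in complexes with Hsf1, was not called. It was at 8.19, 8.51 and 8.43 in Tamoxifen arrays of lines 14843, 14844 and 14846, against 8.97, 8.97 and 8.48 in Vehicle arrays. The groups overlapped because the Vehicle array of line 14846 lay among the Tamoxifen arrays. The difference of -0.43 ± 0.14 (SE) had an adjusted p of 0.14.

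**Figure D2:**
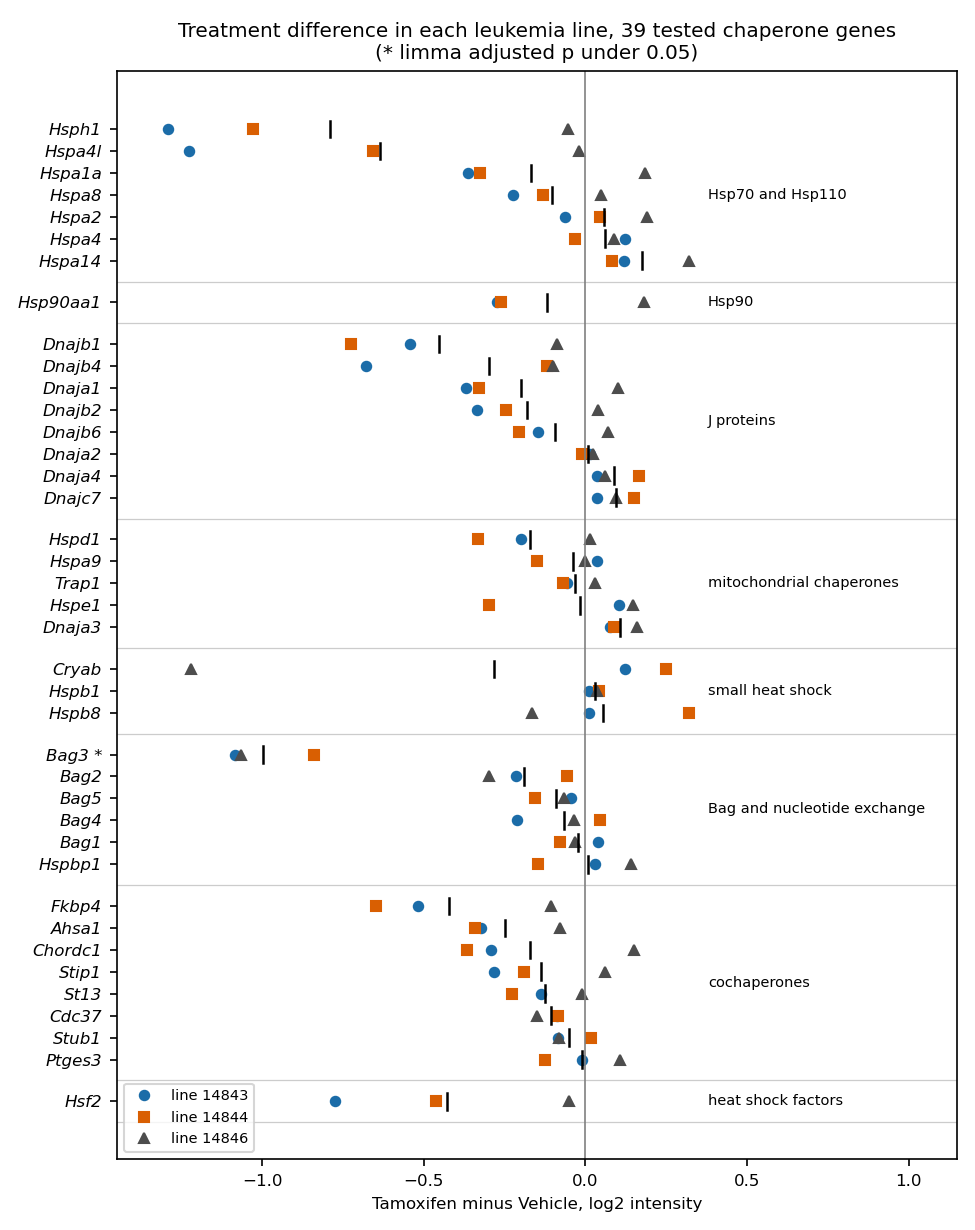
Tamoxifen minus Vehicle difference in log2 intensity (horizontal axis) for the 39 tested chaperone genes, ordered by role, with 1 symbol per leukemia line and a vertical bar at the fitted difference. The symbols of line 14846 sit near 0 for most genes whose other symbols lie to the left, and Bag3, with 3 symbols between -1.08 and -0.84, is the gene past the threshold.

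In both line 14843 and line 14844, 11 of the 39 genes were lower by at least 0.25 log2, or 28.2%, against 5.77% of all tested genes, a limit chosen after the values were seen. The 11 were Ahsa1, Bag3, Chordc1, Dnaja1, Dnajb1, Fkbp4, Hsf2, Hsp90aa1, Hspa1a, Hspa4l and Hsph1. Apart from Bag3, the other 10 had differences from -0.10 to 0.19 in line 14846, 4 of them above 0, whereas the median in line 14846 over all genes that met the limit was -0.43. For all 11, line 14846 had the lowest Vehicle array, as for 34.6% of all tested genes. For 7 it had the highest Tamoxifen array, a count given without a share over all genes. Shares among all genes that met the limit are not given here, so neither count can be read as an excess. The limit itself favours genes with high Vehicle arrays in lines 14843 and 14844, and which array of line 14846 stands apart was not tested. Medians over the 39 genes were -0.14, -0.15 and 0.02 in lines 14843, 14844 and 14846, while medians over all tested genes were 0.02 in each line. A promoter window was found for 10 of the 11 genes, of which 6 held a heat shock match, and for 23 of the other tested genes, of which 9 did. The genes were split after their values were seen, the counts are small, and a relation to the match was not tested.

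**Figure D3:**
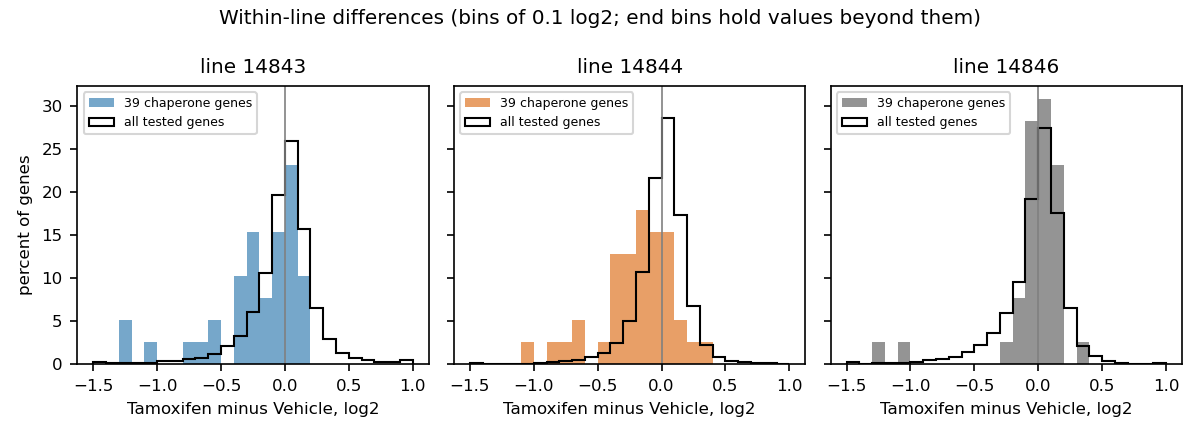
Percent of genes (vertical axis) by Tamoxifen minus Vehicle difference in log2 intensity (horizontal axis) in each line, as filled bars for the 39 chaperone genes and as an outline for all tested genes. The filled bars lie left of the outline in lines 14843 and 14844, with medians of -0.14 and -0.15, and near it in line 14846, with a median of 0.02.

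With 1 array per line and treatment, the difference between lines in their response could not be tested. When line 14846 was left out, 6 chaperone genes were called lower, or 15.4%, against 3.58% of all tested genes in that fit. Besides Bag3 these were Hsph1, Hspa4l, Dnajb1, Hsf2 and Fkbp4, at log2 differences of -1.16, -0.94, -0.63, -0.62 and -0.58 and limma adjusted p-values of 0.0083, 0.0299, 0.0195, 0.0316 and 0.0204. That fit rests on lines 14843 and 14844 alone. The genes besides Bag3 were nearly flat in line 14846, so their calls follow from leaving it out and are no separate support. Without line 14843 or without line 14844, Bag3 was the only chaperone gene called lower. In those fits 427 and 67 of all tested genes were called lower. Bag3 was called whichever line was left out, at adjusted p-values of 0.00897 without line 14843, 0.0368 without line 14844 and 0.0113 without line 14846.

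Immediate early genes, which cells induce within minutes of handling or stimulation, were measured beside them. Egr1 was at 10.85, 10.74 and 10.53 in Tamoxifen arrays of lines 14843, 14844 and 14846, against 10.19, 10.25 and 10.44 in Vehicle arrays. Its within-line differences were 0.67, 0.49 and 0.09, and those of Egr2 were 0.48, 0.42 and 0.04. Both genes were singled out of the list and fall outside the rule for naming genes. Medians over the list were 0.11, 0.13 and 0.02 in lines 14843, 14844 and 14846, and fitted differences ran from -0.20 to 0.42. Of 13 tested genes of this list 0 were called in either direction, the limma adjusted p of Egr1 being 0.10. At an unadjusted p of 0.05, 4 were higher and 1 lower, where the shares over all genes were 10.5% higher and 13.3% lower. The summed intensity of all 14 measured genes of the list, with Ier3 below the filter, was 13718, 13309 and 11555 in Tamoxifen arrays. In Vehicle arrays it was 12870, 11717 and 12055. The part of the immediate early genes in the chaperone values was not tested.

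Other genes of protein folding, taken from 6 further lists, gave 6 calls, all lower, among 81 tested genes, or 7.41%, near the 4.93% of all tested genes called lower. The lists covered remaining Hsp70 and small heat shock relatives, the TRiC chaperonin with prefoldin, other J proteins, mitochondrial folding factors and proteases, further cochaperones, and reported Hsf1 targets. Clpx, the unfoldase of the mitochondrial ClpXP protease, was at 9.25 ± 0.01 log2 intensity in Tamoxifen arrays and 9.71 ± 0.01 in Vehicle arrays (SD, n = 3 each). Its difference of -0.46 ± 0.05 (SE) had a limma adjusted p of 0.011 and lay between -0.48 and -0.44 in the lines. Hspb11, named as a small heat shock protein but a subunit of intraflagellar transport, differed by -0.45 ± 0.07, and Hspb6, a small heat shock protein of muscle, by -0.38 ± 0.06.

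The other 3 calls were Dnajb14, a J protein of the endoplasmic reticulum membrane, at -0.40 ± 0.06 (SE), Dnajc18 at -0.39 ± 0.05, and Pdcl3, a phosducin-like partner of TRiC, at -0.36 ± 0.05. Adjusted p-values of these 5 genes lay between 0.0195 and 0.0343, and each was lower in all 3 lines. Without line as a block Clpx and Dnajb14 kept their calls and the other 4 did not, with adjusted p-values of 0.054 to 0.0932. Leaving out line 14844 ended all 6 calls (0.0935 to 0.175). Leaving out line 14843 ended those of Dnajb14, Dnajc18, Hspb11 and Pdcl3 (0.0617 to 0.0757), and leaving out line 14846 those of Dnajb14, Hspb6 and Pdcl3 (0.053 to 0.0723). Of the 8 subunits of the TRiC ring and the 6 prefoldin genes, 0 were called, the lowest adjusted p being that of Cct6a, at 0.165. Of 8 tested Hsf1 targets outside the chaperone list 0 were called, with a median of -0.11. Their medians in lines 14843, 14844 and 14846 were -0.02, -0.03 and -0.13. Those of the 39 chaperone genes were -0.14, -0.15 and 0.02, so the 2 lists did not share an order of lines.

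**Figure D4:**
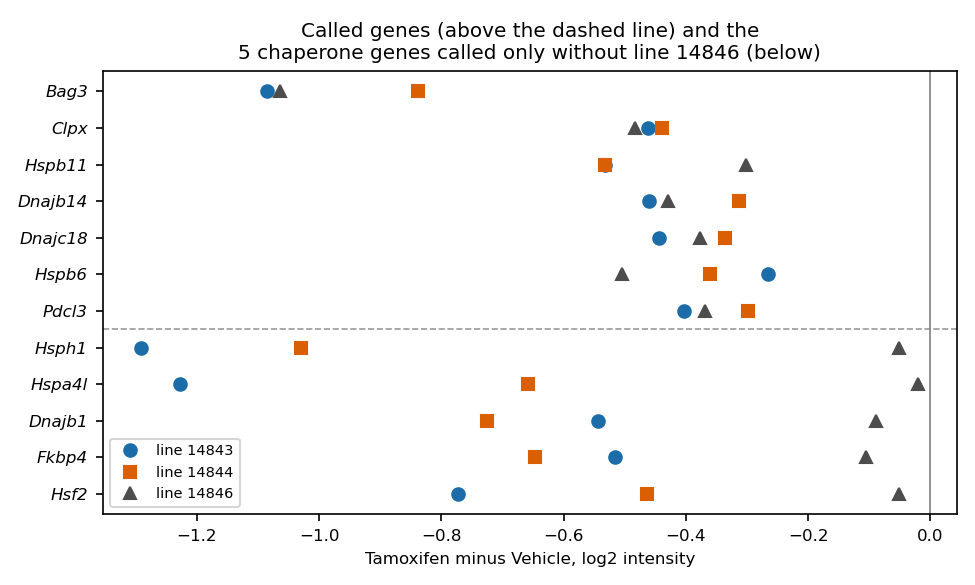
Tamoxifen minus Vehicle difference in log2 intensity (horizontal axis) with 1 symbol per leukemia line, for Bag3 and the 6 called genes of the further folding lists above the dashed line and 5 chaperone genes below it. Above the line every symbol lies left of 0, close together for Clpx, between -0.48 and -0.44, and wider for Hspb11, between -0.53 and -0.30. Below it the symbols of line 14846 stand between -0.10 and -0.02. The genes were chosen by their calls with and without line 14846, so this contrast is no separate result.

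Between the 3 leukemias, averaged over treatments, no chaperone gene passed limma's F test at an adjusted p of 0.05, or 0 of 39, against 3.11% of all tested genes. At an unadjusted p of 0.05, 5 of the 39 differed. No share of all genes at that limit is given here, so the count cannot be read as an excess. Bag3 came closest, at an adjusted p of 0.0518, with line means of 9.11, 9.10 and 8.59 in lines 14843, 14844 and 14846. The largest span between line means was that of Cryab, at 1.46 log2, with means of 6.47, 6.44 and 7.91 and an adjusted p of 0.14. In the further folding lists 3 of 81 tested genes were called between lines, or 3.7%, near the 3.11% of all tested genes. They were Dnajc6, the clathrin-uncoating auxilin, Hspa12a and Rpap3. Dnajc6 had means of 7.19, 8.67 and 10.11 in lines 14843, 14844 and 14846, with an adjusted p of 0.0063.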

How the data were processed

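The deposited values were probe set intensities on a linear scale, which the authors had computed by RMA in Affymetrix Expression Console 1.1 according to the submitters' processing notes. RMA equalises the distribution of signal across arrays, so a shift of all genes together would be removed. RNA was extracted with Trizol and 200 ng was labelled with the Ambion WT kit, per the labels' protocols. Arrays have no read depth, and their number limits the precision.

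Here log2 was taken. Of 35556 probe sets, 21789 had 1 gene symbol in the platform annotation, 1621 had several and 12146 were unnamed here; those with several or none were left out. Symbols were updated by Entrez identifier for 21698 probe sets, and 0 changed. Where a gene had several probe sets, the one with the highest mean was used. Genes at or above the 30th percentile of mean level, a log2 intensity of 6.70, were tested. limma 3.58.1 in R 4.3.3 (lmFit, eBayes) was fitted over all 13956 genes with line and treatment as terms, with two-sided p-values adjusted by Benjamini-Hochberg. Line pairs the arrays because, per the series' design text, both treatments were given to recipients of every line; deviations from group means correlated at 0.64, 0.68 and 0.68 within lines. The fit was tested on simulated data. The members and lists were chosen with earlier results of these data known. Named with values in every array were called genes, the 6 uncalled with the smallest p, and a set of inducible chaperones and factors; genes named after their values were seen are marked. Other genes are summarised.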

Additional observations from a re-analysis of the deposited data

Results flagged for a closer look

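For 5 chaperone genes, leukemia lines moved in opposite directions under the same treatment, by at least 0.15 log2 each way. With 1 array per line and treatment, these differences between lines were not tested. The Tamoxifen minus Vehicle difference of Cryab ranged over 1.47 log2, from -1.22 in line 14846 to 0.25 in line 14844. Its arrays of lines 14843 and 14844 all lay below the log2 intensity of 6.70 used as the filter, so the differences in those lines rest on dim values and Cryab passed through line 14846 alone. The difference of Hspa1a ranged over 0.549, from -0.36 in line 14843 to 0.19 in line 14846. The range was 0.517 for Chordc1, from -0.37 in line 14844 to 0.15 in line 14846, and 0.454 for Hsp90aa1, from -0.27 in line 14843 to 0.18 in line 14846. Hspb8, a dim small heat shock gene, ranged over 0.486, from -0.17 in line 14846 to 0.32 in line 14844. Groups of 3 arrays were too small to check for single outlying arrays.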

How the results depend on the processing

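Without the replicate block of line, 295 genes changed in place of 870, and 0 chaperone genes were lower in place of 1, the log2 difference of Bag3 being -0.996 in both fits. Leaving out each line gave 70 to 669 changed genes, 1 to 6 lower chaperone genes, 193 to 455 genes that differed between lines in place of 434, and 0 to 1 chaperone genes that did. The fewest changed genes were found without line 14844, 70, and 498 were found without line 14843; between lines, 193 differed without line 14844 and 264 without line 14846. With arrays centred on their medians, 1 chaperone gene, Bag3, differed between lines, as it did without line 14843. Hspe1, at -0.02 with all lines, reversed without line 14844, to 0.13, its range over the lines left out being -0.10 to 0.13. The other alternatives, with no filter or a filter at the 50th percentile, 32 added before log2, the mean of a gene's probe sets, or eBayes with trend and robust settings, left 1 lower and 0 higher chaperone genes. The median difference over chaperone genes was -0.101 in the main fit and ran from -0.115 to -0.07 under the 10 alternatives. Each move was less than the spread between lines, but that spread is a wide limit beside the median itself. Few arrays and low signal limit what can be seen for the small heat shock genes.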
